A study of Solanum tuberosum with 6 samples.

Results

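The 100 genes described here are those whose mRNA stood far apart, in the same direction, in the libraries numbered 1 of both kinds of potato (Solanum tuberosum) RNA that were sequenced. They were chosen by their read levels in these same libraries. The level was CPM, the read count of a gene scaled to the total of its library, plus 0.5. A gene was a higher member when MitoRNA library 1 was at least 3 times both MitoRNA libraries 2 and 3, and TotRNA library 1 was at least 3 times both TotRNA libraries 2 and 3. A lower member was at least 3 times below both other libraries in each kind of RNA. Of 15181 listed genes, 58 (0.382%) were higher members and 42 (0.277%) were lower members. The shift of the libraries numbered 1 is therefore what chose these genes, and its size is given as a description with no test.

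MitoRNA libraries held poly(A)-selected RNA from purified mitochondria, and TotRNA libraries held poly(A)-selected total RNA. Both came from wild-type S. tuberosum, with 3 libraries each and no treatment, age or cultivar named in the labels. The labels do not say whether libraries with the same number came from the same plants, the same preparation or the same day, so p-values measure no more than how far these libraries spread, and that spread may be technical. The comparison of MitoRNA with TotRNA asks which mRNAs of the cytosol go with mitochondria.

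Most mitochondrial proteins of plants are encoded in the nucleus, translated from cytosolic mRNAs and imported, and some of these mRNAs are found at the outer surface of the organelle. The level of an mRNA in a mitochondrial fraction depends on how much of it the cells hold and on the share that goes with the organelle. The ratio of MitoRNA to TotRNA compares a gene's relative level in the fraction with its relative level in total RNA. In bulk RNA, fewer cells of a type and less RNA per cell cannot be told apart.

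The files give gene IDs without names, and 0 of the 15181 IDs matched the 32873 potato genes of the RefSeq table used here. No role, position or sequence is therefore given for any member, and at most 2 IDs are printed for each direction, those with the highest mean CPM over the 6 libraries. The MitoRNA libraries held 23056535, 12799068 and 34776699 counts (libraries 1 to 3) and the TotRNA libraries 54599781, 85355383 and 82842146. The libraries numbered 1 were thus the middle of the MitoRNA depths and the lowest of the TotRNA depths. All listed genes had at least 50 counts in every TotRNA library, so a gene absent from TotRNA in some libraries could not become a member. MitoRNA library 1 also had 370 listed genes at 0 counts, against 264 and 164 in MitoRNA libraries 2 and 3. Whether this moves with the choice of members was not tested.

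The most abundant higher member, PGSC0003DMG400014104, had 965.5, 164.0 and 52.2 CPM in MitoRNA libraries 1 to 3, against 5263, 491 and 172 CPM in TotRNA libraries 1 to 3. These values rest on 22261, 2099 and 1814 counts in MitoRNA and 287369, 41943 and 14238 counts in TotRNA. Library 1 was highest, library 2 intermediate and library 3 lowest in both kinds of RNA, and the groups overlapped. At every library number MitoRNA was below TotRNA, with log2 ratios of MitoRNA over TotRNA (of CPM plus 0.5, as for all such ratios here) of -2.45, -1.58 and -1.71. The second higher member, PGSC0003DMG400029247, had 458.6, 52.2 and 11.7 CPM in MitoRNA libraries 1 to 3, against 2747, 132.7 and 52.4 CPM in TotRNA libraries 1 to 3. Its order of libraries was the same, and its log2 ratios were -2.58, -1.34 and -2.12. By mean CPM over the 6 libraries both genes stood high among the listed ones, at ranks 80 and 250. Those means are carried by the libraries numbered 1, on which the genes were chosen. In MitoRNA library 3 PGSC0003DMG400029247, at 11.7 CPM, lay below the median of all listed genes (13.2 CPM).

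The most abundant lower member, PGSC0003DMG400015225, was nearly missing from both libraries numbered 1. It had 7.46, 1731 and 1784 CPM in MitoRNA libraries 1 to 3, against 6.26, 1403 and 1235 CPM in TotRNA libraries 1 to 3. The counts behind the low values were 172 in MitoRNA library 1 and 342 in TotRNA library 1, so they are measured levels and not gaps. Library 1 was at least 218-fold below the other MitoRNA libraries and at least 183-fold below the other TotRNA libraries, each the smaller of 2 folds of CPM plus 0.5. Libraries 2 and 3 lay close together in both kinds of RNA. In spite of this shift its log2 ratio of MitoRNA over TotRNA was 0.23, 0.30 and 0.53 in numbers 1 to 3. The second lower member, PGSC0003DMG400024722, had 81.7, 569 and 640 CPM in MitoRNA libraries 1 to 3, against 79.4, 484 and 251 CPM in TotRNA libraries 1 to 3. Its log2 ratio was 0.04 and 0.23 in numbers 1 and 2 and 1.35 in number 3, where TotRNA was lower than in number 2.

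**Figure D1:**
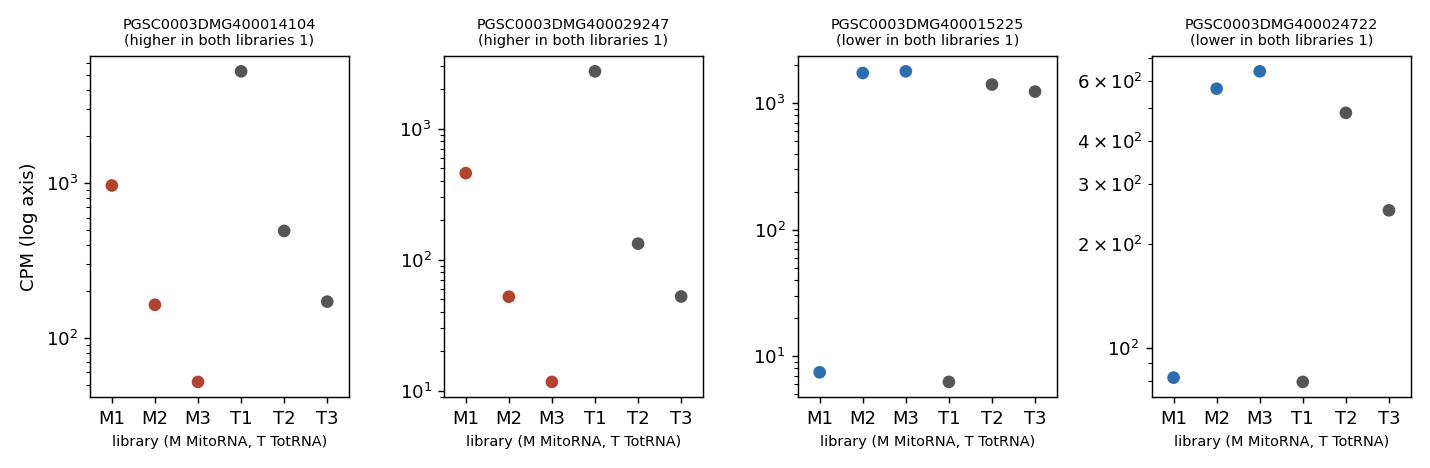
CPM (log axis, a separate range per panel) of the 4 named members in MitoRNA libraries 1 to 3 (coloured points, left) and TotRNA libraries 1 to 3 (grey points, right); each point is a single library. PGSC0003DMG400015225 stood at 7.46 CPM in MitoRNA library 1 and 6.26 CPM in TotRNA library 1, while its other 4 values lay at 1235 CPM or above.

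The 58 higher members as a group had median levels of 21.3, 2.81 and 2.16 CPM in MitoRNA libraries 1 to 3, against 23.2, 2.93 and 3.68 CPM in TotRNA libraries 1 to 3. Their levels in the libraries numbered 1 ranged from 3.34 to 965.5 CPM in MitoRNA and from 4.38 to 5263 CPM in TotRNA. The 42 lower members had medians of 3.32, 22.6 and 19.8 CPM in MitoRNA libraries 1 to 3, against 3.38, 28.7 and 26.4 CPM in TotRNA libraries 1 to 3. Over all listed genes the library medians were 13.2 to 14.3 CPM in MitoRNA and 16.2 to 18.8 CPM in TotRNA. Members were thus not drawn from a narrow range of abundance. By mean CPM over the 6 libraries, 35 of the 58 higher members (60.3%) and 18 of the 42 lower members (42.9%) fell in the lower 5 of 10 equal classes of listed genes. The highest class held 6 higher and 4 lower members. Some low values rest on few counts: 5 higher members had under 10 counts in MitoRNA library 2, 2 had under 10 in MitoRNA library 3, and 6 lower members had under 10 in MitoRNA library 1, 2 of them with 0.

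**Figure D2:**
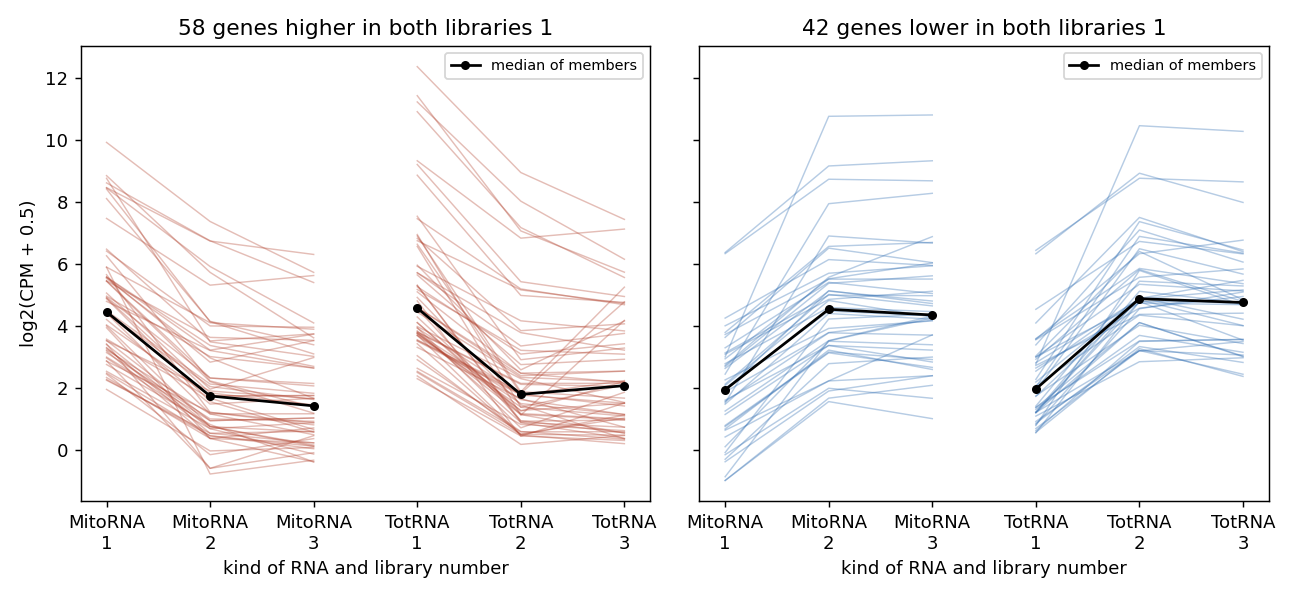
log2(CPM + 0.5) of every member in MitoRNA libraries 1 to 3 (left in each panel) and TotRNA libraries 1 to 3 (right), with 1 thin line per gene and kind of RNA and the median in black. The left panel shows the 58 higher members and the right panel the 42 lower members; the rule fixes the drop or rise from library 1, and libraries 2 and 3 have similar medians.

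Higher members took a larger part of the TotRNA library than of the MitoRNA library numbered 1, and 4 genes carried most of the TotRNA part. Together they made up 0.495%, 0.0747% and 0.0432% of the counts in MitoRNA libraries 1 to 3, against 1.59%, 0.146% and 0.0851% in TotRNA libraries 1 to 3. PGSC0003DMG400014104 alone was 0.0966% of MitoRNA library 1 and 0.526% of TotRNA library 1. Without the 4 most abundant higher members the shares in the libraries numbered 1 were 0.279% for MitoRNA and 0.361% for TotRNA. Lower members made up 0.0344%, 0.403% and 0.424% of MitoRNA libraries 1 to 3, against 0.0360%, 0.405% and 0.311% of TotRNA libraries 1 to 3. PGSC0003DMG400015225 was 0.173% and 0.178% of MitoRNA libraries 2 and 3, against 0.140% and 0.123% of TotRNA libraries 2 and 3.

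The size of the shift varied widely among members. Taking for each gene the smallest of its 4 folds (library 1 to each of the other libraries of its kind), higher members had a median of 3.77-fold and reached 21.8-fold, and 15 of 58 were at 5-fold or more. Lower members had a median of 3.69-fold and reached 183-fold, and 8 of 42 were at 5-fold or more. Near the limit of 3, the weakest higher members had smallest folds of 3.0003, 3.006 and 3.011, and the nearest genes left out had 2.94, 2.93 and 2.91. The weakest lower members had 3.01, 3.06 and 3.12, and the nearest genes left out had 2.99, 2.96 and 2.95. Between 3-fold and 3.5-fold lay 17 higher and 17 lower members, and between 2.5-fold and 3-fold lay 35 and 33 genes that were not members. The limit therefore cuts through a continuous range of shifts and does not mark off a separate class.

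The members were the overlap of longer lists in each kind of RNA. MitoRNA library 1 was at least 3 times both other MitoRNA libraries in 269 genes (1.77% of those listed), and TotRNA library 1 was at least 3 times both other TotRNA libraries in 150 (0.988%). The 58 shared genes were 21.6% of the MitoRNA list and 38.7% of the TotRNA list. In the other direction there were 252 genes in MitoRNA (1.66%) and 153 in TotRNA (1.01%), and the 42 shared genes were 16.7% and 27.5% of these lists. Genes past the limit in opposite directions were 0 for higher in MitoRNA and lower in TotRNA, and 1 for the reverse. Genes past the limit in a single kind of RNA mostly leaned the same way in the other kind. Of the 211 genes past it upwards in MitoRNA alone, 178 had TotRNA library 1 above the mean of TotRNA libraries 2 and 3 on the log2 scale, with a median shift of 0.67, where 44.7% of all listed genes were above it and the median was -0.06. Of the 92 genes past it upwards in TotRNA alone, 76 had MitoRNA library 1 above the mean of the other MitoRNA libraries, with a median shift of 0.93, where 50.9% of all listed genes were above it and the median was 0.02. Downwards, 173 of 210 genes past it in MitoRNA alone were also low in TotRNA library 1 (median -0.73), and 90 of 111 past it in TotRNA alone were also low in MitoRNA library 1 (median -0.74).

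The same rule set around the libraries numbered 2 gave 0 higher and 0 lower genes. Around the libraries numbered 3 it gave 0 higher and 2 lower genes. In single kinds of RNA, library 2 passed the limit upwards in 0 MitoRNA genes and 11 TotRNA genes and downwards in 6 and 44. Library 3 passed it upwards in 8 MitoRNA genes and 23 TotRNA genes and downwards in 21 and 17.

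**Figure D3:**
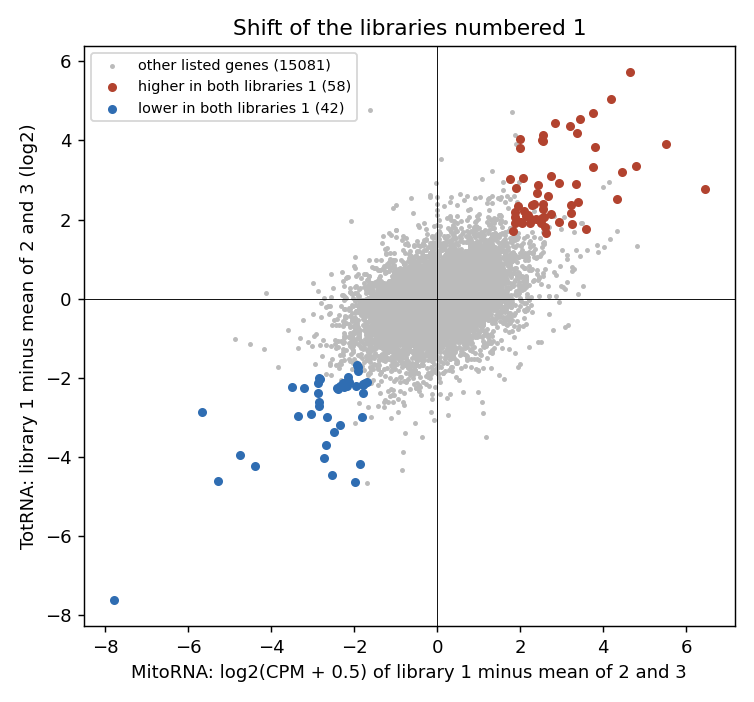
Each listed gene's shift of library 1, as log2(CPM + 0.5) minus the mean of libraries 2 and 3, in MitoRNA (x axis) and TotRNA (y axis), with the 58 higher members in red, the 42 lower members in blue and all other genes in grey. Members fill the upper right and lower left corners by the rule; grey points reach up to them without a gap.

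Within a library number, MitoRNA and TotRNA levels of most members stayed within 2-fold of each other, in higher members less often than in all listed genes. The median log2 ratio of MitoRNA over TotRNA of the higher members was -0.35, -0.38 and -0.55 in numbers 1, 2 and 3. With other scalings and pseudocounts it ran from -0.36 to -0.23 in number 1, from -0.49 to -0.22 in number 2 and from -0.74 to -0.32 in number 3. Over all listed genes it was -0.12, -0.18 and -0.16. The lower members had medians of -0.20, -0.10 and -0.16, which changed sign in number 2 and in part in number 3 with other scalings. The ratio lay within 2-fold in 34, 35 and 36 of the 58 higher members (58.6%, 60.3% and 62.1%). In the 42 lower members it did so in 28, 30 and 31 (66.7%, 71.4% and 73.8%). Over all listed genes this share was 65.5%, 74.3% and 81.6% in numbers 1 to 3. The medians of the 3 numbers spread over 0.20 in higher members, 0.09 in lower members and 0.07 in all listed genes; the rule, which asks for a shift in both kinds of RNA, takes part in this spread. The difference between a gene's MitoRNA shift and its TotRNA shift ranged from -2.03 to 3.67 on the log2 scale in higher members, with a median of 0.05, and from -2.82 to 2.65 in lower members, with a median of -0.11.

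Single members did not all keep their ratio. The ratio ranged over more than 2-fold among the 3 numbers in 33 of 58 higher members (56.9%) and 18 of 42 lower members (42.9%), against 35.7% of all listed genes. It ranged over more than 4-fold in 9 higher and 6 lower members (15.5% and 14.3%), against 5.92% of all listed genes. Part of the members have few counts, as given above, and the part of counting error in these ranges was not tested. MitoRNA was above TotRNA in all 3 numbers in 6 higher members (10.3%) and 10 lower members (23.8%), where 21.8% of all listed genes were. It was below TotRNA in all 3 numbers in 26 higher members (44.8%) and 15 lower members (35.7%), where 38.0% of all listed genes were.

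**Figure D4:**
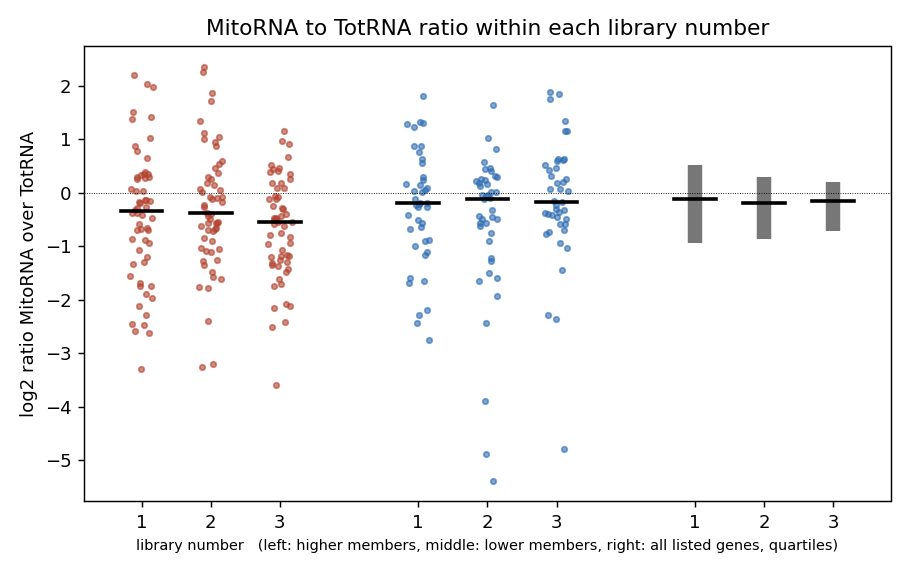
log2 ratio of MitoRNA over TotRNA (CPM + 0.5) within library numbers 1, 2 and 3 for the 58 higher members (red, left), the 42 lower members (blue, middle) and all listed genes (grey bars from the lower to the upper quartile, right); black lines are medians. The medians of the higher members were -0.35, -0.38 and -0.55, those of all genes -0.12, -0.18 and -0.16.

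Libraries 2 and 3, which the rule did not set against each other, also differed more often among the higher members than among all genes. In higher members, library 2 and library 3 differed by more than 2-fold in 11 of 58 genes (19.0%) in MitoRNA and in 11 of 58 in TotRNA, against 2.82% and 5.67% of all listed genes. In lower members the counts were 2 of 42 (4.76%) in MitoRNA and 8 of 42 (19.0%) in TotRNA. These shares are descriptions. The rule asks higher members to be low in libraries 2 and 3 relative to library 1. Their medians there were 2.16 to 3.68 CPM, against 13.2 to 18.8 CPM over all listed genes. The shares were not matched for level, and the part of counting error in them was not tested. Past 2-fold in both kinds of RNA, library 2 was above library 3 in 4 higher members. These were the 4 most abundant ones, singled out after their values were seen, and all 4 had the order library 1, 2, 3 from high to low in both kinds of RNA. The third of them had 389.7, 106.3 and 41.5 CPM in MitoRNA libraries 1 to 3, against 2388, 258.8 and 70.2 CPM in TotRNA libraries 1 to 3. The fourth had 347.9, 59.5 and 16.5 CPM in MitoRNA and 1920, 143 and 46.5 CPM in TotRNA. The ID of the fourth shares its last 6 digits with another listed ID, which is also a higher member, at place 31 by mean CPM. Both members may thus stand for the same locus. Whether their gene models overlap, and how shared reads were counted, was not examined.

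Another 3 higher members, also singled out after their values were seen, had opposite orders in both kinds of RNA, with library 2 above library 3 in MitoRNA and below it in TotRNA, past 2-fold each time. The most abundant of these had 339.3, 16.9 and 7.99 CPM in MitoRNA libraries 1 to 3, against 118.6, 3.14 and 37.4 CPM in TotRNA libraries 1 to 3. Its log2 ratio of MitoRNA over TotRNA was 1.51 and 2.26 in numbers 1 and 2 and -2.16 in number 3. The other two had 4.06 and 2.66 CPM in MitoRNA library 2 and 1.75 and 1.06 CPM in MitoRNA library 3, against 3.01 and 1.12 CPM in TotRNA library 2 and 26.7 and 3.10 CPM in TotRNA library 3. Across the 58 higher members the log2 difference of library 2 minus library 3 correlated between MitoRNA and TotRNA at 0.002 (Pearson) and -0.05 (Spearman). Across the 42 lower members these were -0.13 and -0.12, and across all listed genes -0.15 and -0.17. These correlations are across genes that share the same 4 libraries, so no p is given.

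MitoRNA against TotRNA, the comparison of the study, was not used to choose the members and was tested across all listed genes. With edgeR's quasi-likelihood test on the 6 libraries (3 libraries per group, p adjusted by Benjamini-Hochberg, limit 0.05), 0 of the 58 higher members and 1 of the 42 lower members were called. Of all listed genes 18.8% were called, 5.66% higher and 13.1% lower in MitoRNA. At an unadjusted p below 0.05 there were 1 higher and 3 lower members, against 35.5% of all listed genes. DESeq2 called 1 higher and 2 lower members against 27.6% of all listed genes, and limma-voom called 0 and 0 against 16.6%. DESeq2 gave no adjusted p for 32 listed genes, and 21 of these were higher members and 0 lower members. The rule gives members a wide spread within each kind of RNA, so the low count follows from the choice and says nothing about whether their mRNAs differ between mitochondria and total RNA. The median standard error of the log2 fold change was 1.04 in higher members and 0.82 in lower members, against 0.31 in all listed genes. The median log2 fold change was -0.23 in higher members (58.6% below 0), -0.004 in lower members (21 of 42 below 0) and 0.01 in all listed genes (49.4% below 0). Group medians of members turned with the libraries kept. The rule fixes where library 1 stands in each kind of RNA, so the direction of these changes follows from the choice of members. Without MitoRNA library 1 the median of the higher members was -2.01, and without TotRNA library 1 it was 1.41. The median was 0.12 and 0.26 without MitoRNA library 2 or 3, and -0.70 and -0.63 without TotRNA library 2 or 3. That of the lower members was 0.47 without MitoRNA library 1, -0.44 without TotRNA library 1, -0.31 and -0.28 without MitoRNA library 2 or 3, and 0.38 and 0.24 without TotRNA library 2 or 3.

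The lower member that was called, ninth in mean CPM among them and singled out for its call, had 0.390, 3.44 and 2.64 CPM in MitoRNA libraries 1 to 3, against 4.30, 163.5 and 86.4 CPM in TotRNA libraries 1 to 3. MitoRNA was below TotRNA at every number, and the MitoRNA values, from 9, 44 and 92 counts, all lay below the TotRNA values. The fitted log2 ratio of MitoRNA over TotRNA was -5.12, with a standard error of 1.24 and an edgeR adjusted p of 0.0262. The call was lost with limma-voom, and without MitoRNA library 2, TotRNA library 2 or TotRNA library 3, each with 0 lower members called. Its ID also shares its last 6 digits with another listed ID.

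Leaving out both libraries numbered 1 gave the members calls at about the rate of all genes. Libraries 2 and 3 also took part in the rule. It chose higher members for levels there below library 1, and lower members for levels above it. These rates are therefore not free of the choice of members. With libraries 2 and 3 alone edgeR called 15 of 58 higher members (25.9%) and 13 of 42 lower members (31.0%), against 22.7% of all listed genes. Among higher members 3 were higher and 12 lower in MitoRNA, and among lower members 6 and 7, against 6.61% higher and 16.1% lower of all listed genes. Log2 fold changes of the called higher members ran from 1.39 to 2.19 upwards and from -4.15 to -1.002 downwards. Those of the called lower members ran from 0.86 to 1.62 upwards and from -5.18 to -0.97 downwards. PGSC0003DMG400014104 stood at -1.43 in this fit (log2 scale, SE 0.46, edgeR adjusted p = 0.0420), against -2.20 (SE 1.37, adjusted p = 0.284) with all 6 libraries. Over the alternatives that gave a value its adjusted p ranged from 0.00816 to 0.789, and without TotRNA library 1 its log2 fold change was 0.46. PGSC0003DMG400024722 had 0.92 (SE 0.28, edgeR adjusted p = 0.0329) with libraries 2 and 3, against 0.86 (SE 0.78, adjusted p = 0.459) with all 6, and a range of 0.0329 to 0.756 over the alternatives. PGSC0003DMG400029247 (-1.36, adjusted p = 0.0728) and PGSC0003DMG400015225 (0.60, adjusted p = 0.105) did not pass with libraries 2 and 3 by edgeR.

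Many more members passed in the authors' deposited table than in the edgeR test on 6 libraries. In the authors' deposited table, 22 of 58 higher members (37.9%) and 16 of 42 lower members (38.1%) had an adjusted p below 0.05, against 37.8% of all listed genes. For PGSC0003DMG400015225, whose levels differ by at least 183-fold within each kind of RNA, the authors' deposited table gives a log2 fold change of 0.53 with a standard error of 0.178 and an adjusted p of 0.0105. For PGSC0003DMG400014104 the authors' deposited table gives -1.66 with a standard error of 0.419 and an adjusted p of 0.000477. It gives -1.57 and an adjusted p of 0.0259 for PGSC0003DMG400029247, and 0.66 and an adjusted p of 0.0550 for PGSC0003DMG400024722, in the authors' deposited table as well. The standard error of PGSC0003DMG400015225 in the edgeR test on 6 libraries was 1.70. That test has no term for the libraries numbered 1, and with such a term, described below, edgeR gave 0.18. The values 1.70 and 0.178 may therefore come from unlike fits.

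The authors' deposited values were matched by a fit that sets the libraries numbered 1 apart. DESeq2 with shrinkage of fold changes and a term for the libraries numbered 1 of both kinds of RNA differed from the authors' deposited log2 fold changes by at most 0.0686 over 15181 genes (median 0.000388). Its standard errors had a Pearson correlation of 0.99999 with the deposited ones across genes, and it called 5742 genes, all of them among the 5744 of the authors' deposited table in the same direction. Without any such term the largest difference was 3.23 and 4192 genes were called. With a term for each of the 3 replicate numbers the largest difference was 1.68 and 4698 genes were called. No source used here says how the authors' test was set up, and what the libraries numbered 1 share was not tested.

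With the same term in edgeR, an alternative added after this match was seen, 16 of 58 higher members (27.6%) and 13 of 42 lower members (31.0%) were called, against 30.3% of all listed genes. Of the higher members 4 were higher and 12 lower in MitoRNA, and of the lower members 6 and 7, against 12.0% higher and 18.4% lower of all listed genes. The median standard error dropped to 0.36 in higher members and 0.28 in lower members, against 0.26 in all listed genes. In the same direction, 9 higher members (15.5%) and 9 lower members (21.4%) were called both with this term and with libraries 2 and 3 alone, against 20.4% of all listed genes. PGSC0003DMG400014104 had -1.72 (SE 0.49, edgeR adjusted p = 0.0309) and PGSC0003DMG400029247 had -1.73 (SE 0.55, edgeR adjusted p = 0.0452) in this fit. With all 6 libraries and no term PGSC0003DMG400029247 had -2.36 (SE 1.62, edgeR adjusted p = 0.331). Over the alternatives that gave a value its adjusted p ranged from 0.0102 to 0.576, and its log2 fold change was 1.12 without TotRNA library 1 and -4.84 without MitoRNA library 1. PGSC0003DMG400015225 had 0.53 (SE 0.18, edgeR adjusted p = 0.0592) and PGSC0003DMG400024722 had 0.67 (SE 0.27, edgeR adjusted p = 0.0895), and neither passed.

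**Figure D5:**
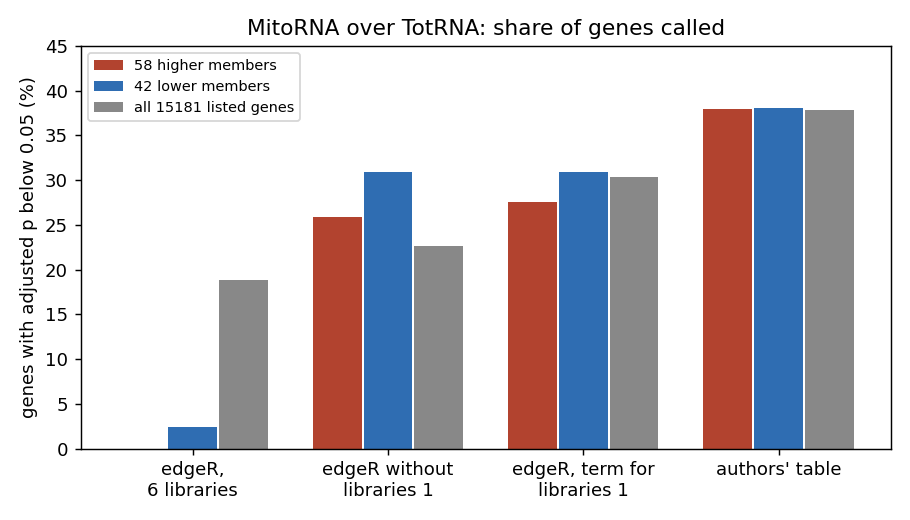
Share of genes (%, y axis from 0) with an adjusted p below 0.05 for MitoRNA over TotRNA in 4 fits (x axis), for the 58 higher members (red), the 42 lower members (blue) and all 15181 listed genes (grey). With all 6 libraries and no further term 0% of higher and 2.38% of lower members were called, against 18.8% of all genes; in the authors' deposited table the 3 shares were 37.9%, 38.1% and 37.8%.

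IDs that share their last 6 digits with another listed ID, which may be models of the same locus, were 3 of 58 higher members (5.17%) and 3 of 42 lower members (7.14%), against 8.89% of all listed genes. How reads shared by such models were counted was not examined for these 6. Higher members 4 and 31 by mean CPM share their last 6 digits with each other, so both may stand for the same locus. Another member of the same direction lay within 3 numbers, by the last 6 digits of the ID, for 7 higher and 2 lower members. Higher members 4 and 31 are among these 7. The share over all listed genes was not counted, so nothing is read from these counts. The files used here do not say whether neighbouring numbers are neighbouring genes.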

How the data were processed

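RNA-seq read counts of 3 MitoRNA and 3 TotRNA libraries were used, grouped and numbered by their titles. The submitters' processing notes name DESeq2, HTSeq 0.5.4p3, Bowtie2 2.1.0, TopHat2 2.0.8b and CASAVA 1.8.2, without their settings; genome build, annotation and strand: not given in the sources used here. The deposited tables hold raw counts per gene, and no row without a gene ID. The comparison table deposited by the authors holds mean normalised counts (a signal), log2 fold changes, their standard errors and Wald statistic (scores), p-values and adjusted p-values, computed by the authors.

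CPM was the count over the library's column sum, and 0.5 CPM was added before folds and logs. The test was edgeR 4.0.16 (R 4.3.3, limma 3.58.1) with TMM scaling, filterByExpr, which removed 0 genes, and Benjamini-Hochberg adjustment over 15181 genes at 0.05; standard errors are the fold change over the square root of F. It was checked on data drawn from the real means and depths. The drawn data held no shift of the libraries numbered 1, so the check does not cover genes with such a shift. DESeq2 1.42.0 left 32 adjusted p-values not given. Fold changes are MitoRNA over TotRNA. Named members are the 2 of each direction with the highest mean CPM. Members, lists and alternatives were chosen with earlier results of these data known. Alternatives covered scaling, filters, tests, the replicate block, left-out libraries, and the rule's factor, pseudocount and scaling. Replicates differed beyond counting noise (chi-square per degree of freedom 39.8 to 537), so no table repeats another; separate library preparations of the same RNA would also differ so.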

Additional observations from a re-analysis of the deposited data

How the results depend on the processing

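The number of members follows the rule's limits. A factor of 2 gave 203 higher and 182 lower genes and a factor of 4 gave 24 and 18. A pseudocount of 2 CPM gave 34 and 24, and a pseudocount of 0.1 CPM gave 74 and 57. A mean of at least 10 CPM left 29 higher and 32 lower members. Leaving out a library numbered 2 or 3 removes a condition of the rule, so it could not lose members. It gave 68 to 98 higher and 44 to 79 lower genes, the most without TotRNA replicate 3. TMM-scaled CPM gave 59 and 41 genes, of which 57 and 40 were members.

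Calls among higher members between MitoRNA and TotRNA were 0 in the main test, 1 with DESeq2, 15 with the replicate block, 15 without replicate 1 of both groups, 16 with the term for the libraries numbered 1 (chosen after seeing the data) and 0 to 3 with 1 library left out. Among lower members they were 1, then 2 with library size alone as the scaling, 2 with DESeq2, 0 with limma-voom, 7 with the block, 13 without replicate 1 of both groups, 13 with the term and 0 to 3 with 1 library left out. Both other filters on low counts (none, or at least 50 counts in 3 libraries) kept all 15181 genes, so they tested nothing. The replicate numbers were not taken to pair the libraries, since the labels do not say that they do. Deviations from the group means correlated at 0.44, 0.44 and -0.05 for numbers 1, 2 and 3, and MitoRNA replicate 3 correlated best with TotRNA replicate 2 (0.41). The 3 deviations of a gene sum to 0 in each kind of RNA. The shared shift of the libraries numbered 1 therefore takes part in the other correlations, and these values cannot settle the pairing. For all listed genes the block gave 3127 calls, against 2854 without it. The share of all listed genes called was 18.8% in the main test, 18.5% with library size alone, 27.6% with DESeq2, 16.6% with limma-voom, 20.6% with the block, 22.7% without replicate 1 of both groups, 30.3% with the term and 7.63% to 17.9% with 1 library left out.

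The median log2 fold change of higher members was -0.23, and -0.355 with library size alone (which moved the median of all genes from 0.01 to -0.15), -0.37 without replicate 1 of both groups and -2.01 to 1.41 with 1 library left out. That of lower members was -0.004, and -0.19 with library size alone, -0.073 with limma-voom and -0.44 to 0.47 with 1 library left out. In both directions the way the median moved with 1 library left out follows from the rule. The lower members' median ratio in number 2 was -0.10, and 0.11 on TMM-scaled CPM; in number 3 it was -0.16, and 0.005 with DESeq2 size factors. Depth limits the ratios of rare members: 3 counts equal 0.234 CPM in MitoRNA replicate 2, the shallowest library.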
